A study of Arabidopsis thaliana with 7 samples.

Results

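The endoplasmic reticulum (ER) chaperones described here are 10 genes, chosen by identifier from 32548 counted genes: the HSP90 gene SHD, the Hsp70 genes BIP1, BIP2 and BIP3, their partners SDF2 and ERDJ3B, the lectin chaperones CNX1, CRT1A and CRT1B, and the protein disulfide isomerase PDIL1-1. All 10 passed the count filter and were among the 29226 genes tested. RNA-seq libraries came from whole Arabidopsis thaliana seedlings of 10 days, grown on medium at 22 °C in 16 h light and 8 h dark: 2 from Col-0 wild type (WT) and 2 from the hon45 mutant. The labels name the mutant without describing its alleles, and do not say whether the libraries of a genotype came from separate plantings. The p-values therefore rest on the spread between these libraries, which may be technical. The test shares that spread in part across genes, so a p-value does not measure the scatter of its gene alone. HON4 and HON5 encode chromatin architectural proteins, and the series also holds 3 chromatin immunoprecipitation samples that were not analysed here.

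Proteins of the secretory pathway fold in the ER lumen. BiP binds exposed hydrophobic stretches with the help of J-domain partners, calnexin and calreticulin hold glycoproteins through their trimmed sugars, disulfide isomerases form and rearrange disulfide bonds, and the ER HSP90 acts late on a narrower set of clients. When unfolded protein builds up, the membrane sensors IRE1, bZIP28 and bZIP17 activate transcription of these genes in what is called the unfolded protein response, partly through the splicing of bZIP60 mRNA. In Arabidopsis, loss of SHD gives plants that resemble clavata mutants.

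Library totals ran from 53858439 to 63543079 counts. HON4 and HON5, taken as the mutated genes from the name of the mutant, were both lower in hon45. HON5 stood at 97.7 and 91.7 CPM in WT and 14 and 15.9 CPM in hon45. CPM are counts scaled to a common library size with TMM factors. HON4, which overlaps AT3G18030, stood at 99.3 and 104 CPM in WT and 39.2 and 41 CPM in hon45. Transcript levels do not show the nature of the mutations. Shoot genes (RBCS1A, CAB1, LHCB2.1, LHCA1) and the root genes PYK10, EXP7, CASP1 and COBL9 were all detected, as in whole seedlings, and the flower genes AG, AP3 and PI stood at mean levels of at most 1.58 CPM. Of all genes tested, 4.1% passed at an adjusted p under 0.05, 2.48% higher and 1.63% lower in hon45.

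Compared per length, the 10 genes covered a wide range of abundance. The lectin chaperones CRT1A and CNX1 led, at 162 ± 13.8 and 151 ± 12 FPKM (fragments scaled by transcript length and library size, mean ± SD, n = 4 libraries of both genotypes), and their ranges overlapped. PDIL1-1 followed at 98.9 ± 11.4 FPKM, below CNX1 and above BIP1 in every library. BIP1, SDF2, CRT1B and BIP2 stood at 73.1 ± 9.23, 67.3 ± 3.39, 63.2 ± 5.94 and 63.1 ± 11 FPKM, with overlapping ranges. BIP1 lay above BIP2 and above CRT1B in every library, while the order of SDF2 and BIP1, and that of BIP2 and CRT1B, changed between libraries. SHD at 44 ± 11.9 and ERDJ3B at 27.6 ± 4.58 FPKM were lower, with SHD above ERDJ3B in every library. BIP3, the BiP gene known for its strong induction under ER stress, stood far below the rest at 0.426 ± 0.088 FPKM. None of the 10 genes overlaps another counted gene by RefSeq spans, but BIP1 and BIP2 are near-identical copies, and how reads were divided between them is not given in the sources used here.

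**Figure D1:**
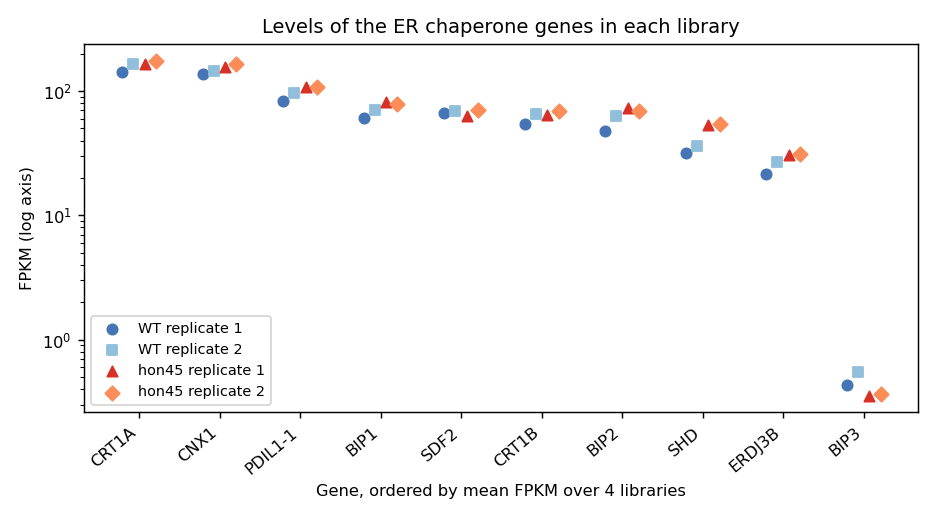
FPKM of each ER chaperone gene (log axis) in the 4 libraries, with genes ordered by their mean. CRT1A and CNX1 lie highest, BIP3 lies below 1 FPKM in every library, and SHD shows the clearest gap between the WT and hon45 points.

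SHD, the HSP90 of the ER lumen (AT4G24190; TAIR10 chromosome 4, 12551717 to 12555909), was the 1 member that rose in hon45. It stood at 69.9 and 82.7 CPM in WT and 122 and 126 CPM in hon45. Both hon45 libraries lay well above both WT libraries, and the gap between the genotypes was wider than the gap between the WT libraries. The fold change was 1.62 (log2 0.70, 95% confidence interval 0.48 to 0.92, edgeR quasi-likelihood adjusted p = 0.000802 over all genes tested, n = 2 per genotype). FPKM gave the same picture per length, with 31.6 and 36.1 FPKM in WT and 53.8 and 54.5 FPKM in hon45. Without hon45 replicate 2 the log2 fold change was 0.68 and the adjusted p 0.0566. With any other single library left out SHD passed, with log2 fold changes from 0.58 without WT replicate 1 to 0.83 without WT replicate 2. A fit with 1 library left out has 1 library in a genotype, so its spread comes only from the other genotype. Adjusted p-values from such fits, here and below, cannot be set against those from 4 libraries. In bulk tissue, more cells with the transcript and more transcript per cell cannot be told apart.

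SHD was a larger share of the chaperone transcripts in both hon45 libraries, which restates that its log2 difference was the largest of the 10. It made up 4.88% of the summed FPKM of the 10 genes in each WT library, and 6.75% and 6.64% in the hon45 libraries. Set against the BiP genes, SHD stood at 0.289 and 0.269 of the summed FPKM of BIP1, BIP2 and BIP3 in WT and at 0.348 and 0.368 in hon45. The genotypes did not overlap in either ratio, though an exact 2-sided permutation test on 2 against 2 libraries cannot go below p = 0.333. The genes on either side of SHD on chromosome 4 did not pass: TLP1 had a log2 difference of −0.29 (edgeR adjusted p = 0.46) and AT4G24200 one of 0.20 (edgeR adjusted p = 0.365).

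The constitutive BiP genes stood higher in hon45 without passing the test. BIP1 (AT5G28540; chromosome 5, 10540460 to 10543375), an Hsp70 of the ER lumen, stood at 161 and 190.4 CPM in WT and 221 and 218 CPM in hon45. BIP2 (AT5G42020; chromosome 5, 16807483 to 16810646), its near-identical copy, stood at 138 and 178 CPM in WT and 206 and 201 CPM in hon45. In both genes the hon45 libraries were close to each other and above both WT libraries, while WT replicate 1 was the lowest. The log2 difference was 0.32 for BIP1 (interval 0.10 to 0.54, edgeR quasi-likelihood adjusted p = 0.104) and 0.36 for BIP2 (interval 0.12 to 0.60, adjusted p = 0.0851 in the same test). Without WT replicate 2, which leaves 1 WT library, they stood at 0.45 and 0.55. Without WT replicate 1 they stood at 0.20 and 0.19.

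BIP3 (AT1G09080; chromosome 1, 2929217 to 2931841) was not higher in hon45, and its genotypes overlapped. It had 62 and 96 counts in WT and 76 and 54 counts in hon45, low enough that its interval ran from −0.98 to 0.43 around a log2 difference of −0.28 (edgeR quasi-likelihood adjusted p = 0.731). By FPKM the hon45 values lay below the WT values, at 0.435 and 0.547 FPKM in WT and 0.355 and 0.368 FPKM in hon45. As a share of summed BiP FPKM, BIP3 made up 0.397% and 0.408% in WT and 0.229% and 0.248% in hon45, and BIP1 kept between 52.7% and 55.8% in all 4 libraries. A rise of BIP3 beyond a log2 fold change of 0.43 lies outside the interval, while falls down to −0.98 lie inside it. With an SE of 0.34 that upper bound is not a detection limit, and larger differences could also have gone uncalled.

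The BiP partners SDF2 and ERDJ3B, which work with BiP in one complex, gave different values, neither of them called. ERDJ3B (AT3G62600; chromosome 3, 23150790 to 23153510), the J-domain co-chaperone, stood at 23.9 and 31.1 CPM in WT and 35.6 and 37 CPM in hon45, with hon45 above WT in every library. Its log2 difference was 0.40 (interval 0.16 to 0.64) and it narrowly missed the threshold (edgeR quasi-likelihood adjusted p = 0.0593). ERDJ3B stood at 0.60 without WT replicate 2 and at 0.22 without WT replicate 1. SDF2 (AT2G25110; chromosome 2, 10684135 to 10686085), the stromal cell-derived factor-like subunit, stood at 59.5 and 61.4 CPM in WT and 55.3 and 63.9 CPM in hon45, and the genotypes overlapped. The log2 difference of SDF2 was −0.02 (interval −0.23 to 0.19, edgeR quasi-likelihood adjusted p = 0.943). The ratio of ERDJ3B to SDF2 by FPKM came to 0.325 and 0.385 in WT and 0.49 and 0.446 in hon45, without overlap.

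The lectin chaperones of the calnexin cycle and the disulfide isomerase showed smaller differences. CNX1 (AT5G61790; chromosome 5, 24827102 to 24829791), the membrane-bound calnexin, stood at 224 and 239 CPM in WT and 255 and 276 CPM in hon45, with hon45 above WT in each library and a log2 difference of 0.20 (interval −0.02 to 0.42, edgeR quasi-likelihood adjusted p = 0.341). CRT1A (AT1G56340; chromosome 1, 21089844 to 21092660) and CRT1B (AT1G09210; chromosome 1, 2972842 to 2976750), soluble calreticulins, had log2 differences of 0.16 (interval −0.06 to 0.38) and 0.17 (interval −0.05 to 0.39), neither of which passed (edgeR adjusted p = 0.461 and 0.419). CRT1A stood at 174 and 199 CPM in WT and 200.4 and 217 CPM in hon45, so that WT replicate 2 and hon45 replicate 1 nearly coincided. CRT1B stood at 79.3 and 92.8 CPM in WT and 92.2 and 101 CPM in hon45, and its genotypes overlapped. The calreticulin genes kept a near-constant ratio, CRT1A to CRT1B by FPKM being between 2.54 and 2.61 in all 4 libraries. PDIL1-1 (AT1G21750; chromosome 1, 7645700 to 7648841), which forms disulfide bonds, stood at 128 and 146 CPM in WT and 161 and 166 CPM in hon45, with hon45 above WT and a log2 difference of 0.26 (interval 0.04 to 0.47, edgeR quasi-likelihood adjusted p = 0.179). Without WT replicate 2, CRT1B and PDIL1-1 stood at 0.29 and 0.36. Without WT replicate 1 they stood at 0.06 and 0.17, CRT1A at 0.07 and CNX1 at 0.15; without hon45 replicate 2, CRT1A and CRT1B stood at 0.10 and 0.10.

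**Figure D2:**
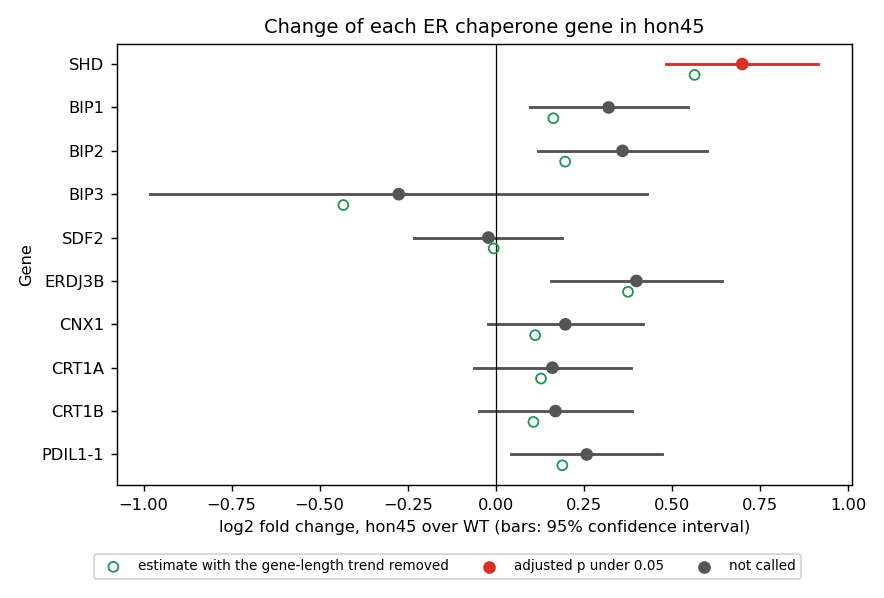
Log2 fold change of each ER chaperone gene, hon45 over WT (n = 2 libraries each), with its 95% confidence interval; the filled points come from the edgeR fit and the open circles from the fit with the gene-length trend removed. Only SHD was called, and the intervals of CNX1, CRT1A, CRT1B, SDF2 and BIP3 include 0.

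Across the group, 1 of 10 genes rose and 0 fell, against 4.1% of all genes called in either direction. Of 7605 protein-coding genes averaging 20 CPM or more, 461 rose and 216 fell, larger shares than over all genes. The lists below are set beside the shares over all genes, which are lower than those of this set. Log2 fold changes ran from −0.28 for BIP3 to 0.70 for SHD, with 8 of 10 above 0 and a median of 0.23. The median was −0.04 over all genes tested and 0.03 over those 7605 genes, of which 4193 lay above 0. In 7 of the 10 both hon45 libraries lay above both WT libraries, which held for 23.1% of all genes tested and for 36.1% of 7605 protein-coding genes averaging 20 CPM or more. In 0 of the 10 did both hon45 libraries lie below both WT libraries, which held for 26.2% of all genes tested. The summed FPKM of the 10 genes came to 647 and 739 in WT and 797 and 821 in hon45.

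WT replicate 1 was lower than WT replicate 2 for all 10 genes, which held for 49.5% of all genes tested. It was the lowest of the 4 libraries for 8 of the 10. This held for 27.5% of all genes and for 39% of protein-coding genes averaging 20 CPM or more. The median log2 difference of WT replicate 2 over WT replicate 1 was 0.23 for the 10 genes, as large as the median genotype difference, while hon45 replicate 2 over hon45 replicate 1 had a median of 0.06. Without WT replicate 1, 1 of the 10 and 2.11% of all genes rose, and the median of the 10 was 0.16. Without WT replicate 2, 6 rose and the median was 0.32, where 7.74% of all genes rose. Without hon45 replicate 1, 1 of the 10 and 0.592% of all genes rose. Without hon45 replicate 2, 0 of the 10 and 0.106% of all genes rose in the edgeR test. In the fit of 4 libraries 5 of the 10 had an unadjusted p under 0.05. This held for 17.9% of all genes tested and for 30.4% of protein-coding genes averaging 20 CPM or more. All 4 shoot genes were lower in WT replicate 1 than in WT replicate 2, and 3 of the 4 were lowest in WT replicate 1. The photosynthesis gene RBCS1A was lowest there, at 3430 and 4565 CPM in WT and 5352 and 5342 CPM in hon45 (log2 difference 0.42, edgeR adjusted p = 0.309). RBCS1A was called higher by DESeq2 and by limma-voom. The other shoot genes, CAB1, LHCB2.1 and LHCA1, stood at 0.18, −0.05 and 0.03, none of them called by edgeR. Of the 4 root genes EXP7 and CASP1 fell by 0.47 and 0.51 on the log2 scale (edgeR adjusted p = 0.016 and 0.0123), COBL9 stood at −0.26 and PYK10 at 0.25, with both hon45 libraries of PYK10 above both WT libraries. EXP7 and CASP1 overlap other counted genes, and neither passed with either hon45 library left out (edgeR adjusted p from 0.153 to 0.209). The part of tissue composition in the chaperone values was not tested.

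**Figure D3:**
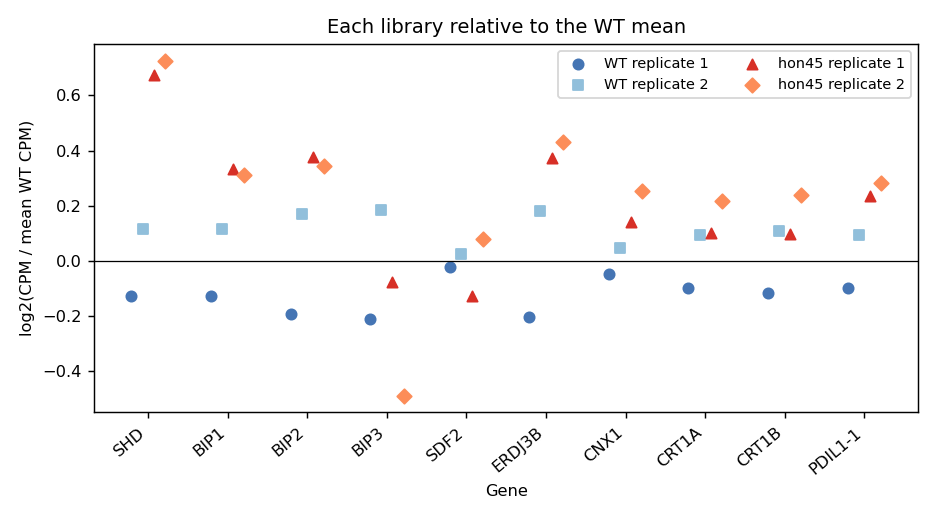
CPM of each ER chaperone gene in each library as log2 of its ratio to the WT mean (n = 2 WT and 2 hon45 libraries). WT replicate 1 lies below WT replicate 2 for every gene, and the hon45 points of SHD lie furthest from the WT points.

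**Figure D4:**
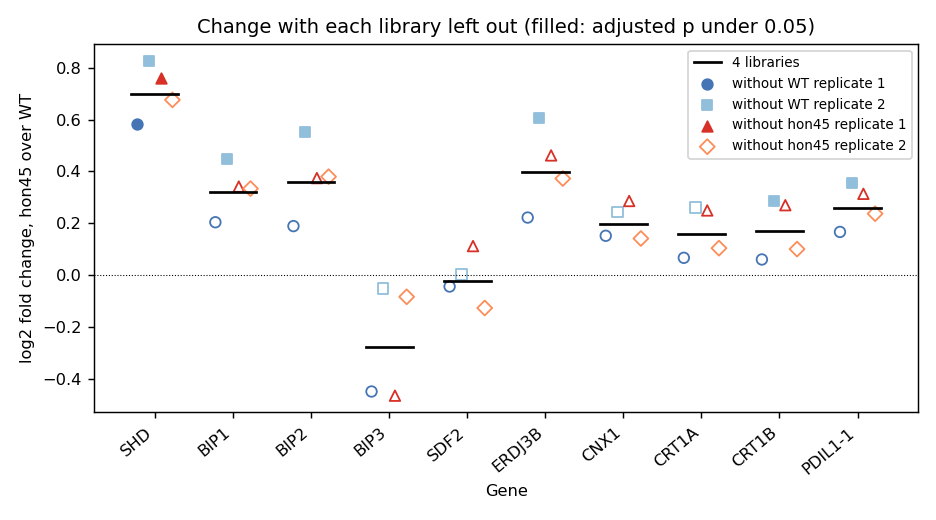
Log2 fold change of each gene with each library left out in turn, the black line being the value from 4 libraries; filled symbols passed at an adjusted p under 0.05. SHD passed in 3 of 4 such fits, and the values without WT replicate 2 lie highest for each of the 6 genes that passed there, with SHD first at 0.83.

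Several differences were smaller once the relation of fold change to gene length was removed. The lengths implied by counts and FPKM were 2280 bases for SHD, 2698 for BIP1 and 2854 for BIP2, against a median of 1384 over tested genes. With that trend removed, SHD had a log2 fold change of 0.56 (adjusted p = 0.00359, edgeR), BIP1 one of 0.16, BIP2 one of 0.20, CNX1 one of 0.11 and CRT1B one of 0.11. ERDJ3B and SDF2, with implied lengths of 1160 and 889 bases, stood at 0.38 and −0.01, close to their values without it. BIP3, with few counts, went from −0.28 to −0.43 with the trend removed. The median of the 10 was then 0.15, and 1 of the 10 and 1.57% of all genes rose.

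Among 23 other ER folding proteins 1 rose and 0 fell, against 2.48% and 1.63% of all genes tested. Of these 23, 18 lay above 0. The median log2 fold change was 0.21, or 0.17 with the gene-length trend removed. The gene that rose was HSP70-17 (AT4G16660; chromosome 4, 9376737 to 9381507), related to the large ER Hsp70 known as GRP170 in mammals, at 19.4 and 20.4 CPM in WT and 31.6 and 32.1 CPM in hon45. Its log2 fold change was 0.68 ± 0.10 (SE; adjusted p = 0.00106, edgeR), close to that of SHD. Without hon45 replicate 2 it was 0.67 (adjusted p = 0.0613). PDIL1-6, a disulfide isomerase relative, and ERDJ2A, a J-domain protein of the translocon, missed the threshold at 0.44 and 0.36 (edgeR adjusted p = 0.0504 and 0.0556); PDIL1-6 overlaps another counted gene, so its value is uncertain. The lowest was ERDJ3A, a J-domain protein needed for pollen tube growth under heat, at −0.72 (edgeR adjusted p = 0.111), which also overlaps another gene. These 3 genes were singled out after their values were seen. The median of the 23 was 0.29 without WT replicate 2 and 0.15 without hon45 replicate 2.

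Glycan trimming and ER-associated degradation held 1 riser among 16 genes, with 0 fallers, against 2.48% and 1.63% of all genes. The median of the 16 was 0.07, or 0.01 with the gene-length trend removed. UGGT (AT1G71220; chromosome 1, 26841630 to 26851919), which tags misfolded glycoproteins for another round of calnexin binding, went from 31.8 ± 1.17 to 43 ± 0.0894 CPM (mean ± SD, n = 2), or 0.43 ± 0.10 as log2 fold change and SE (adjusted p = 0.0169, edgeR). It did not pass without hon45 replicate 1 (0.47, adjusted p = 0.101), without hon45 replicate 2 (0.43, adjusted p = 0.277) or with the gene-length trend removed (0.23, adjusted p = 0.153). None of the 18 genes of the translocon and the oligosaccharyltransferase, which move proteins into the ER and add their glycans, was called by edgeR, with 4 of 18 at an unadjusted p under 0.05, against 17.9% of all genes, and a median of −0.03 that became 0.04 with the gene-length trend removed; the smallest p belonged to OST1A at 0.34 (adjusted p = 0.118), which overlaps another gene. Without WT replicate 2, UGGT and GCS1 rose while DER2.1 and DER2.2 fell in the first of these lists, and STT3B and OST1A rose while AT5G60460 fell in the other.

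The sensors and transcription factors of the unfolded protein response showed 1 rise among 12 and 0 falls, against 2.48% and 1.63% of all genes. Of the 12, 7 lay above 0, and the median was 0.09. With the gene-length trend removed the median turned to −0.05, with 4 of 12 above 0. BAG7 (AT5G62390), an ER-resident co-chaperone that moves to the nucleus after cleavage, went from 64.7 ± 6.9 to 85.7 ± 0.869 CPM (log2 fold change 0.41, SE 0.10, edgeR quasi-likelihood adjusted p = 0.027); it overlaps AT5G62380. BAG7 did not pass without WT replicate 1 (edgeR adjusted p = 0.0761), hon45 replicate 1 (0.117) or hon45 replicate 2 (0.335), or with a filter of 5 CPM in 2 libraries (0.0572). The sensors IRE1A and IRE1B had log2 differences of 0.25 (interval 0.03 to 0.47) and 0.14 (interval −0.10 to 0.38). Among the membrane-bound factors, BZIP28 stood at 0.10 (interval −0.11 to 0.32), BZIP17 at 0.13 and BZIP49 at −0.40 (interval −1.08 to 0.28). BZIP49 had 52 to 103 counts and overlaps another counted gene. BZIP60, whose mRNA IRE1 splices, stood at 51.5 and 41.6 CPM in WT and 40.8 and 43 CPM in hon45, with WT replicate 1 above the other 3 libraries and a log2 difference of −0.15 (interval −0.38 to 0.08); it was called lower without WT replicate 2. Gene counts do not show the splicing of this mRNA. The protease gene S1P stood at 0.07, AT4G20310 at −0.24, and the NAC factors NAC103, NAC062 and NAC089 at −0.11, 0.14 and −0.28; the edgeR adjusted p-values of the 11 uncalled genes were all at least 0.202.

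SHD has relatives in other compartments. Of 15 HSP90 and HSP70 genes of the cytosol, plastid and mitochondrion, 3 rose and 1 fell, against 2.48% and 1.63% of all genes. Among the 15, 14 lay above 0, and the median was 0.23, as for the ER chaperones. With the gene-length trend removed the medians were 0.03 for these 15, with 11 above 0, and 0.15 for the ER chaperones, and of the 3 risers only cpHSC70-2 passed. The risers act in the plastid: CR88, its HSP90, at 0.50 (SE 0.13, edgeR quasi-likelihood adjusted p = 0.0337), and the stromal Hsp70 genes cpHSC70-1 and cpHSC70-2 at 0.44 and 0.45 (adjusted p = 0.0318 and 0.0174). CR88 stood at 37.4 and 55.2 CPM in WT and 65.9 and 65.6 CPM in hon45, and without WT replicate 1 its log2 difference was 0.25 (edgeR adjusted p = 0.202). CR88 also did not pass with the gene-length trend removed (0.38, edgeR adjusted p = 0.117), with library totals in place of TMM (0.0709) or with the 5 CPM filter (0.1). Without WT replicate 1 cpHSC70-1 stood at 0.29 (edgeR adjusted p = 0.12). With the length trend removed it stood at 0.32 (edgeR adjusted p = 0.0814), and with the 5 CPM filter its adjusted p was 0.067. With either hon45 library left out none of the 3 passed (edgeR adjusted p from 0.0837 to 0.41). The cytosolic HSP90 genes HSP90-2, HSP90-3 and HSP90-4, near-identical copies among which reads may be split, stood at 0.34, 0.27 and 0.23, heat-inducible HSP90-1 at 0.03 and mitochondrial HSP90-6 at 0.35, none of them called by the edgeR quasi-likelihood test. HSP90-2 was called higher by DESeq2 and by limma-voom; HSP90-2 and HSP90-4 passed without WT replicate 2, and HSP90-6 without WT replicate 1. The gene that fell was HSC70-2 (AT5G02490; chromosome 5, 550035 to 552647), a cytosolic Hsp70, from 38.1 ± 1.97 to 22.9 ± 1.23 CPM (log2 fold change −0.74, SE 0.10, edgeR quasi-likelihood adjusted p = 0.00048), and it passed whichever library was left out. Whether SHD differs from these relatives in its response was not tested.

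**Figure D5:**
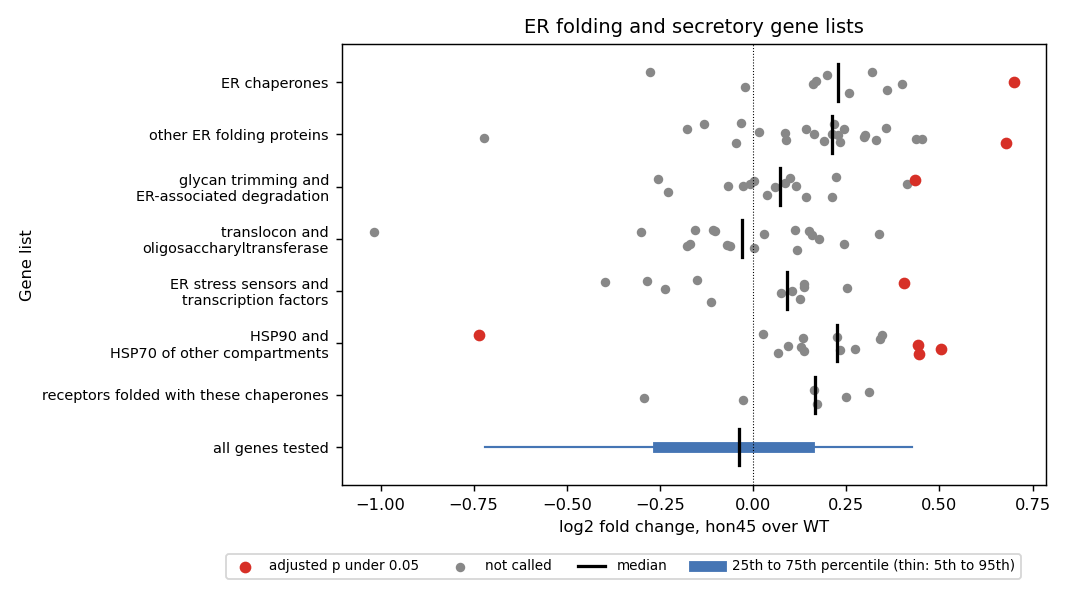
Log2 fold changes of the genes in 7 lists (points, red where called) with list medians (black), beside the percentiles of all 29226 genes tested (blue). The ER chaperones, the other ER folding proteins and the HSP90 and HSP70 genes of other compartments have medians of 0.21 to 0.23, which were 0.15, 0.17 and 0.03 with the gene-length trend removed; the translocon list has −0.03, or 0.04 with it removed.

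Genes of receptor pathways tied to these chaperones did not pass. CLV1 and CLV2 are receptors and CLV3 the peptide ligand of the meristem pathway linked to SHD, EFR and FLS2 are immune receptors and BRI1 is the brassinosteroid receptor; 0 of 6 were called by edgeR, 1 had an unadjusted p under 0.05 and the median was 0.17, with 4 of 6 above 0. With the gene-length trend removed the median turned to −0.01, with 3 of 6 above 0. CLV2 had the smallest p, at 0.31 (adjusted p = 0.199), and CLV3 had at most 25 counts in a library. BRI1 passed without WT replicate 2. In the salicylic acid response, which is known to raise ER chaperone transcripts through NPR1 and TBF1, 3 of 6 genes rose. Of all genes tested 2.48% rose. The 3 were PR2, PR5 and WRKY70, with log2 fold changes of 1.03, 0.77 and 0.85 (edgeR adjusted p = 0.00678, 0.0141 and 0.00251). Without hon45 replicate 2, PR5 and WRKY70 did not pass (edgeR adjusted p = 0.189 and 0.0756). NPR1 stood at 0.07 (interval −0.13 to 0.28), TBF1 at −0.09 (interval −0.29 to 0.12) and PR1 at 0.11, none of them called. The part of this response in the chaperone values was not tested.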

How the data were processed

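Gene counts were deposited by the authors as raw whole numbers, 1 column per library, and FPKM values were deposited in 1 file per library with a locus for each gene, per the file headers. The submitters' processing notes name HISAT2, Bowtie2, edgeR, deepTools and TAIR10 without roles; the counting program, its annotation and its use of strand were not given in the labels, headers or notes. Counts were fitted in R 4.3.3 with edgeR 4.0.16 (filterByExpr, TMM, glmQLFit and glmQLFTest, genotype only, Benjamini-Hochberg over 29226 genes); called means an adjusted p under 0.05. CPM are counts scaled by TMM-adjusted library totals; intervals are 95% and use the test's SE and degrees of freedom. Alternatives used DESeq2 1.42.0, limma 3.58.1 on voom weights or on log2(FPKM + 1), which understates the change of low genes, and the settings named in the closing section. For FPKM fits, 3 genes with a failed status were dropped. Length was the median of counts over FPKM scaled by library totals, and its trend was a natural spline with 4 degrees of freedom. Methods were checked on simulated counts. Coordinates are those of the FPKM files with 1 added to the start; overlaps came from RefSeq spans, in which all 32548 identifiers matched. Named were the 10 chaperones, HON4, HON5, the sensors, the called genes of each list (at most 4 by p, or the smallest p) and the HSP90 relatives; other genes named from the lists were chosen after their values were seen. The members and lists were chosen with earlier results of these data known. Replicates differed beyond sampling noise (chi-square test of their counts over genes).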

Additional observations from a re-analysis of the deposited data

How the results depend on the processing

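SHD kept its direction under all 18 alternatives, with log2 fold changes of 0.56 to 0.83, and passed in 16; the exceptions were the fit without hon45 replicate 2 and log2(FPKM + 1) without a filter (0.67, limma-trend adjusted p = 0.188). Of 10 chaperones 1 was called in the edgeR fit; 2 were called with RLE size factors, no count filter, the edgeR exact test, a replicate block and overlapping genes left out, ERDJ3B being the second, and 0 with log2(FPKM + 1) without a filter. Leaving out 1 library gave 0 to 6. Over all genes 1199 passed, against 724 with at least 5 CPM in 2 libraries, 121 on log2(FPKM + 1), 110 on log2(FPKM + 0.1), 7 without a filter, and 107 to 3941 with 1 library left out. The stricter filter called 345 higher and 379 lower, against 724 and 475 in the edgeR fit. DESeq2 called 764 and 322, removal of the length trend 408 and 530 of 25906 genes, and log2(FPKM + 1) 40 and 81. No called result reversed; values of the 10 genes were on the same side of the threshold in 164 of 176 comparisons with an adjusted p. On log2(FPKM + 1) the calls of SHD, HSC70-2 and PR5 were kept, and those of HSP70-17, UGGT, BAG7, CR88, cpHSC70-1, cpHSC70-2, PR2, WRKY70, EXP7 and CASP1 were not. BIP3 was below 0 in all 15 settings that kept it, and SDF2 lay above 0 in 5 of 18. Same-numbered libraries did not deviate together (r = 0.0646 over 15592 genes). The labels do not say whether they were paired, and this correlation over genes cannot settle it. The replicate block called 1767 genes, ERDJ3B among them at 0.41 (edgeR adjusted p = 0.0193). The older quasi-likelihood method was added after the data were seen. Depth limits BIP3 most, at 54 to 96 counts. The causes of these changes were not tested.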
